A study of Mus musculus with 6 samples.

Results

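The serpins are a superfamily of protease inhibitors, and their transcripts were followed here through 6 RNA-seq libraries of mouse keratinocytes. The members were genes whose symbol begins with Serpin, a clade letter and a number, for clades A to F, H and I. Of the 24982 genes listed, 62 were analysed as members, and clade G was not analysed here. The keratinocytes came from neonatal C57BL/6 skin. The KSFM-Ca2+ cells were derived and kept in a low-calcium keratinocyte medium of that name (3 libraries), while the DKSFM cells were grown out of the KSFM-Ca2+ cells by adapting them to the defined medium DKSFM (3 libraries), and neither group was treated. Each group is therefore a line, the DKSFM cells descend from the KSFM-Ca2+ cells, and the medium cannot be told apart from the selection and passage that went with it. The names of the deposited files mark KSFM-Ca2+ replicate 3 and all DKSFM replicates as combined without saying what was combined, so for most libraries this mark cannot be told apart from the line either. The sources do not say whether replicates were separate cultures, so p-values measure the spread between these libraries only, which may be technical.

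The values are the mean read coverage per base of each gene, deposited to 1 decimal and not scaled to library size. Summed over genes, coverage was 1601676, 1238411 and 1057751 in the KSFM-Ca2+ replicates 1 to 3, and the DKSFM replicates had 1174348, 1239438 and 1170675. Reads per gene were not used, so the smallest visible value is the rounding step of 0.1. Values below are coverage after scaling between libraries ("normalized coverage") unless called listed values, which are those of the files. Because coverage is per base, levels are set side by side between genes below. How it was computed is not given in the sources used here, so ranks and shares of genes are approximate. Differences are log2 fold changes, DKSFM over KSFM-Ca2+, with their standard error (SE), fitted by limma after adding 0.1 to each value, which understates changes of low genes. Genes entered the test if 3 or more libraries reached a normalized coverage of 0.5, and adjusted p-values are those of Benjamini and Hochberg over all 12409 such genes. A gene is called higher or lower at an adjusted p under 0.01 and a change of at least 2-fold.

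A serpin holds out an exposed reactive-centre loop as bait. When a protease cuts the loop, the serpin changes shape and traps the enzyme in a covalent complex, so that each inhibitor molecule is spent once. Clade A holds mainly secreted serpins of blood plasma, clade B intracellular serpins of which several are typical of stratified epithelium, and clade E inhibitors that act outside the cell, while some members have lost inhibition and serve as hormone carriers or chaperones.

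Of the 62 serpins, 20 were listed at 0 in every library, 42 were above 0 in at least 1 library and 25 passed the filter. Among these 25, 16 were called higher in the DKSFM cells and 4 lower, where 13.2% of all tested genes were called higher and 10.5% lower. In all 25 the libraries of the lines did not overlap, as in 83.3% of the genes tested. Their log2 fold changes had a median of 1.61, beside -0.00 over all tested genes. In 5 of them a line was listed at 0 throughout, so that the fitted change depends on the added 0.1. Without those 5 the median was 1.30. In 8 of the 25 only one line had any library reaching the filter, and these had to differ between the lines, so the counts and medians describe the members and support nothing further.

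The total level of serpin transcripts and the count of calls went in opposite directions. Serpins made up 0.337%, 0.343% and 0.356% of all coverage in the KSFM-Ca2+ replicates and 0.271%, 0.269% and 0.270% in the DKSFM replicates. The total was thus lower in every DKSFM library although 16 members were called higher. Clade B held 69.1% of mean serpin coverage in the KSFM-Ca2+ cells and 60.9% in the DKSFM cells, and its 27 genes summed to 2938 ± 172 and 2040.4 ± 10.6 (SD, n = 3). Clade H, a single gene, held 24.1% and 29.6%. Clade A, with 26 genes, rose from 0.209% to 3.43% of serpin coverage. As these are bulk samples, fewer cells with a transcript and less of it per cell cannot be told apart.

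**Figure D1:**
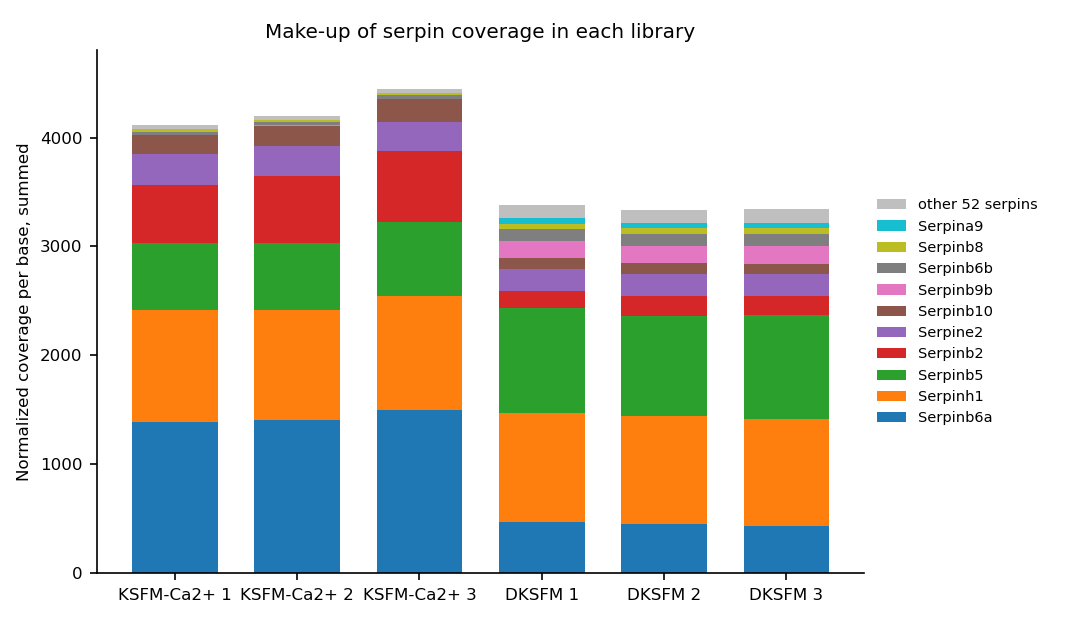
Stacked bars give the normalized coverage per base of serpin genes in each of the 6 libraries, with the 10 most covered genes in colour and the other 52 in light grey. The parts of *Serpinb6a* and *Serpinb2* are smaller and that of *Serpinb5* is larger in the 3 DKSFM libraries, while *Serpinh1* keeps its height.

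The order of levels differed between the lines. In the KSFM-Ca2+ cells *Serpinb6a* came first, followed by *Serpinh1*, *Serpinb5*, *Serpinb2*, *Serpine2* and *Serpinb10*, and the libraries of *Serpinb5* and *Serpinb2* overlapped. In the DKSFM cells the order was *Serpinh1*, *Serpinb5*, *Serpinb6a*, *Serpine2*, *Serpinb2* and *Serpinb9b*, the last pair with overlapping libraries. *Serpinb6a*, *Serpinh1* and *Serpinb5* together made up 72.8% of serpin coverage in the KSFM-Ca2+ cells and 71.3% in the DKSFM cells.

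**Figure D2:**
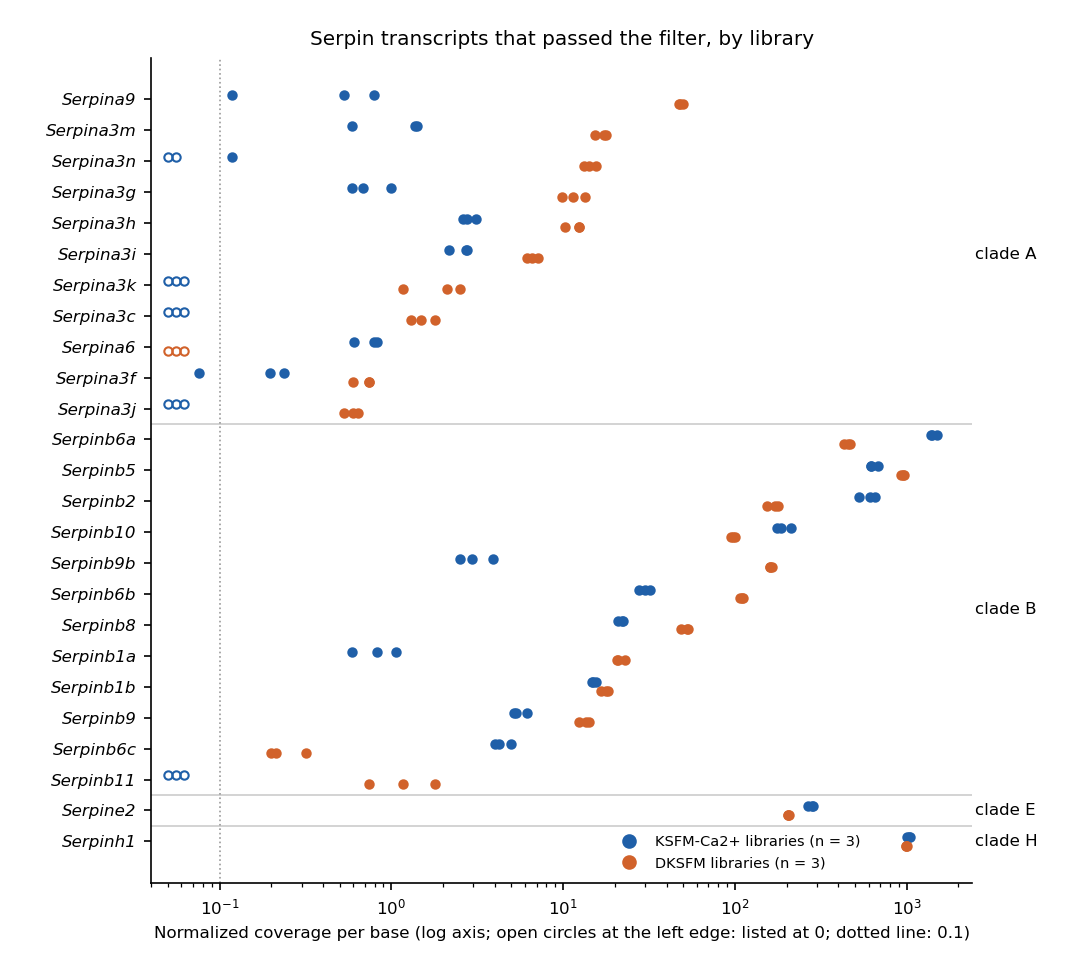
Each point is the normalized coverage per base of 1 library on a log axis, for the 25 serpins that passed the filter, in blue for the 3 KSFM-Ca2+ and in orange for the 3 DKSFM libraries, with values of 0 drawn open at the left edge. The points of the lines do not overlap in any row, and *Serpinh1* shows the smallest gap.

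In clade E, *Serpine2* (chr1:79794197-79861180, minus strand, GRCm38), encoding protease nexin, an inhibitor of thrombin and urokinase found on the cell surface and matrix, had a normalized coverage of 285, 281 and 267 in the KSFM-Ca2+ replicates and 203, 206 and 204 in the DKSFM replicates. The difference was under 2-fold and not called (log2 fold change -0.44, SE 0.03, limma adjusted p = 3.50e-06), and relative to the median of the other tested genes in its fixed 20 Mb window, at whose end it lies, the log2 fold change was -0.15. *Serpine3* was listed at 0 in all libraries.

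Urokinase and its partners were read from a list of 9 genes of plasminogen activation, of which 6 were tested, 1 was called higher and 2 lower (13.2% and 10.5% of all tested genes were), with a median log2 fold change of 0.26 beside -0.00 for all tested genes. *Plau*, the urokinase-type activator itself, had 160.3, 159.8 and 172 in the KSFM-Ca2+ replicates and 39.3, 38.6 and 38.1 in the DKSFM replicates (log2 fold change -2.08, SE 0.04, limma adjusted p = 2.38e-09). Its receptor gene *Plaur* was lower as well, with 26.8, 26.3 and 28.9 against 2.87, 3.50 and 4.13 (log2 fold change -2.94, SE 0.12, limma adjusted p = 1.57e-07). *Plat*, the tissue-type activator, was close to the limit of detection, with 0.610, 0.494 and 0.354 in the KSFM-Ca2+ replicates and 1.80, 1.4 and 1.17 in the DKSFM replicates. It was called higher (log2 fold change 1.41, SE 0.24, limma adjusted p = 7.22e-04), but not with 0.5 added in place of 0.1 (log2 fold change 0.98), with 1 added (0.72) or among the combined libraries alone (log2 fold change 1.74, adjusted p = 0.0102), where the p-value alone ended the call. A filter asked of every library removed *Plat*. *Vtn*, which encodes the matrix protein vitronectin, and *Plg*, which encodes plasminogen, were listed at 0 in all libraries. *Lrp1*, the endocytic receptor that clears serpin-protease complexes, rose from 2.06, 1.78 and 1.42 to 11.6, 11.8 and 12.4 (log2 fold change 2.71, SE 0.13, limma adjusted p = 3.64e-07). It was the only one of 5 tested clearance receptors to be called in either direction, and the median of the 5 was 0.25.

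Clade B has 27 members in the mouse genome files used here, 12 of them tested, 6 called higher, 3 lower and 3 not called, where 13.2% of all tested genes were called higher and 10.5% lower. *Serpinb11* and *Serpinb6c* reached the filter in one line only and had to differ. They lie in a pair of runs, 12 genes within 749 kb of chromosome 1 and 15 genes within 1161 kb of chromosome 13. On chromosome 1, 5 genes were tested. *Serpinb2* (chr1:107511423-107535478, plus strand), a urokinase inhibitor gene whose product stays largely inside keratinocytes and macrophages, had 527, 610.0 and 652 in the KSFM-Ca2+ replicates and 154, 178 and 172 in the DKSFM replicates. The lines were well apart, and the gene was called lower in the DKSFM cells (log2 fold change -1.82, SE 0.08, limma adjusted p = 2.38e-07). Its neighbour *Serpinb10* (chr1:107529003-107549271, plus strand), known mostly from blood cell precursors, had 177, 184 and 212 in the KSFM-Ca2+ replicates and 97.5, 99.8 and 94.7 in the DKSFM replicates. The difference lay just under 2-fold (log2 fold change -0.97, SE 0.06, limma adjusted p = 2.25e-06), so that *Serpinb10* was not called, but it was called without KSFM-Ca2+ replicate 1 (log2 fold change -1.02) and among the combined libraries alone (-1.12). GENCODE types *Serpinb10* as a polymorphic pseudogene and lets longer transcripts of *Serpinb2* run into it over 6476 bases of the same strand, so part of the coverage of either gene may belong to the other. No stretch of 85 bases, the length of a read, was shared between 1 chosen transcript of either gene and the annotated transcripts of another gene. The remaining transcripts of *Serpinb2* and *Serpinb10* were not compared with each other, so reads from the overlap may still fit both genes.

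The other tested genes of the chromosome 1 run, *Serpinb5* and *Serpinb11* before this pair and *Serpinb8* after it, had higher levels in the DKSFM cells. *Serpinb5* (chr1:106861173-106883348, plus strand), which encodes maspin, a serpin of basal epithelial cells without known protease inhibition, had 619.6, 616 and 680.1 in the KSFM-Ca2+ replicates and 963, 921 and 953 in the DKSFM replicates. It was higher in every DKSFM library, by less than 2-fold (log2 fold change 0.57, SE 0.04, limma adjusted p = 4.42e-06). *Serpinb8* (chr1:107590006-107610484, plus strand), whose product can inhibit the proprotein convertase furin, had 21.9, 20.9 and 22.2 against 48.3, 52.7 and 53.0 and was called higher (log2 fold change 1.24, SE 0.05, limma adjusted p = 1.35e-07). *Serpinb11* was listed at 0 in the KSFM-Ca2+ libraries and reached 0.743, 1.80 and 1.17 in the DKSFM libraries (limma adjusted p = 2.12e-05). Its fitted log2 fold change of 3.66 (SE 0.35) depends on the added 0.1, as does every fitted value against a line at 0. Serpins typical of the upper epidermis were at the limit of detection in both lines. *Serpinb12*, *Serpinb7*, *Serpinb3a*, *Serpinb3c* and *Serpinb3d* were listed at 0.1 at most, and *Serpinb13* and *Serpinb3b* at 0.

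The sequences before the starts of these genes are shown because all 5 tested genes of the run hold the letters TGANTCA there, whichever way they moved, and 1 of them the narrower core motif of AP-1 factors, TGACTCA or TGAGTCA. RefSeq promoter sequences (GRCm38.p6) were matched by symbol for 53 of the 62 serpins, and the 250 bases before the start were searched on both strands for TGANTCA, for its AP-1 forms, for TATAAA and for TTCNNNGAA, the core motif of STAT factors. The letters TGANTCA were found before 11 of 53 serpin genes (20.8%) and in 6.75% of all 32851 promoter windows of that length. They were found in 7 of 11 clade B windows on chromosome 1 (*Serpinb5*, *Serpinb12*, *Serpinb11*, *Serpinb7*, *Serpinb2*, *Serpinb10* and *Serpinb8*), in none of 14 on chromosome 13 and in 4 of 18 clade A windows on chromosome 12, none of these 4 before a tested gene. An AP-1 form was found before 6 of 53 serpin genes (11.3%) and in 4.46% of all windows. Of the 25 tested serpins 19 had a window to search, and among these only *Serpinb8* had an AP-1 form. In the windows of *Serpinb5*, *Serpinb2*, *Serpinb10* and *Serpinb11* the middle base was A or T, so these genes do not share an AP-1 core. TATAAA was found before 13 of 53 serpin genes beside 12.4% of all windows and in 7 of 11 clade B windows on chromosome 1, but these were mostly windows of untested genes, and of the 5 tested genes of the run only *Serpinb2* had it. TTCNNNGAA was found before 7 of 53 serpin genes beside 7.02% of all windows, and before none of the 11 on chromosome 1. The motifs were picked after the values were seen. A match describes the letters only, not a bound site or a cause. The windows below are given 5′ to 3′ on the plus strand with TGANTCA in capitals. They are chr1:106860925-106861174 for *Serpinb5*, chr1:107511173-107511422 for *Serpinb2*, chr1:107528753-107529002 for *Serpinb10*, which lies within the span of the longer *Serpinb2* transcripts and outside their exons, and chr1:107589756-107590005 for *Serpinb8*. The window of *Serpinb11* lies within an annotated exon and is not shown. The motif begins 140, 94, 54 and 23 bases before the start, in this order.
Serpinb5: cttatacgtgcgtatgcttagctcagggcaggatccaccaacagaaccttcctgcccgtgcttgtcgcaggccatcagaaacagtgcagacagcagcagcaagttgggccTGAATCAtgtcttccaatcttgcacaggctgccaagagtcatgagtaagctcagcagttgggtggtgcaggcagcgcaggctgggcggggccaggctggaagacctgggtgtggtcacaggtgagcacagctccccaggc
Serpinb2: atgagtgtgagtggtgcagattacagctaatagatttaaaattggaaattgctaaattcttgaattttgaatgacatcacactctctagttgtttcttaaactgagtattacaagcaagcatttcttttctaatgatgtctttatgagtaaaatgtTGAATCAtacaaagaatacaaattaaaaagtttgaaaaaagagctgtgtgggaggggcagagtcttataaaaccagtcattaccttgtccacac
Serpinb10: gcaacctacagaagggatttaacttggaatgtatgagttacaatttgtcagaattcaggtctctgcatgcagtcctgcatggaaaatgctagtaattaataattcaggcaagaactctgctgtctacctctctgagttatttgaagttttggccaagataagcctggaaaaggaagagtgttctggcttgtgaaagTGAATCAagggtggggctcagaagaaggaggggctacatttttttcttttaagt
Serpinb8: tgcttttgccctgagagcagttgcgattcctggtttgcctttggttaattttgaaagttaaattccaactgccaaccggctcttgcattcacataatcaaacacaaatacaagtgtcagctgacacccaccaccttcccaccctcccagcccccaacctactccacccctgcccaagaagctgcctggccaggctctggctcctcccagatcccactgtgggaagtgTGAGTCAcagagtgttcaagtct
Of the genes with these windows, *Serpinb2* was called lower, *Serpinb8* was called higher, and *Serpinb5* and *Serpinb10* changed by less than 2-fold in opposite directions.

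On chromosome 13 the copies of 3 intracellular inhibitors sit side by side, and copies of 1 family moved in opposite directions. *Serpinb6a* (chr13:33917918-34002794, minus strand), an inhibitor of trypsin-like proteases and cathepsin G in the cytoplasm, was the most covered serpin of the KSFM-Ca2+ cells, with 1386, 1409 and 1498, and had 468, 456 and 433 in the DKSFM cells. It was called lower (log2 fold change -1.66, SE 0.04, limma adjusted p = 1.03e-08). Its copy *Serpinb6c* had 4.04, 4.25 and 4.96 in the KSFM-Ca2+ replicates and fell to 0.212, 0.20 and 0.318 in the DKSFM replicates, close to the rounding step (log2 fold change -3.73, SE 0.19, limma adjusted p = 4.32e-07). The copy *Serpinb6b* (chr13:32965209-32979067, plus strand) rose instead, from 29.8, 27.6 and 31.9 to 108, 109.8 and 112 (log2 fold change 1.88, SE 0.05, limma adjusted p = 2.04e-08). *Serpinb6d* and *Serpinb6e* were listed at 0. No stretch of 85 bases, the length of a read, was shared between the chosen transcript of *Serpinb6a*, *Serpinb6b* or *Serpinb6c* and the annotated transcripts of any other gene. A full-length read without errors from such a transcript would thus match annotated transcripts of 1 gene only. Other transcripts of these 3 genes, and the rest of the genome, were not searched. Summed over its copies, the Serpinb6 family was called lower (log2 fold change -1.38, SE 0.04, limma adjusted p = 1.57e-08), since *Serpinb6a* dominates the sum. *Serpinb6a* overlaps *Nqo2* on the other strand over 23757 bases. It also overlaps the antisense gene *1110046J04Rik* over 24615 bases and *Ripk1* over 432 bases of that strand, whose levels are not given here. The libraries were directional and aligned with a strand setting, and how coverage was then assigned to overlapping genes is not given in the sources used here. *Nqo2* had a mean of 36.6 in the KSFM-Ca2+ cells and 4.77 in the DKSFM cells, far under *Serpinb6a* in both.

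*Serpinb9b* (chr13:33027416-33041884, plus strand) showed the largest rise, as a fold, among the tested clade B genes above 0 in both lines. It had 2.52, 2.97 and 3.89 in the KSFM-Ca2+ replicates and 159, 161 and 164 in the DKSFM replicates, a mean 51.7 times higher (log2 fold change 5.67, SE 0.13, limma adjusted p = 8.75e-09). With this it went from rank 12 to rank 6 among the 62 serpins. *Serpinb9* itself (chr13:33003250-33017957, plus strand), the granzyme B inhibitor that shields cytotoxic cells from their own enzyme, had 6.17, 5.14 and 5.31 against 13.6, 14.1 and 12.3 (log2 fold change 1.25, SE 0.09, limma adjusted p = 3.99e-06). Of the other copies *Serpinb9c* was listed at 0.3 at most, *Serpinb9g* at 0.1 at most, and *Serpinb9d*, *Serpinb9e* and *Serpinb9f* at 0. *Serpinb1a* (chr13:32842092-32851185, minus strand), the inhibitor of neutrophil elastase and cathepsin G, rose from 1.07, 0.593 and 0.826 to 20.6, 21 and 22.9 (log2 fold change 4.57, SE 0.18, limma adjusted p = 1.03e-07). Its copy *Serpinb1b* was at 15.6, 14.7 and 15.0 in the KSFM-Ca2+ replicates and at 18.4, 17.8 and 16.6 in the DKSFM replicates (log2 fold change 0.22, SE 0.06, limma adjusted p = 0.00751), a small difference whose adjusted p ran from 0.00516 to 0.0716 under the alternatives. The DKSFM cells thus held *Serpinb1a* and *Serpinb1b* at like levels, where the KSFM-Ca2+ cells held mainly *Serpinb1b*. *Serpinb1c* was listed at 0.2 at most. Few immune serine proteases, the class these serpins inhibit, were found. Of 14 such genes 8 were listed at 0 throughout, *Gzma*, *Gzmb* and *Ctsg* among them, and *Elane* was listed at 0.1 at most. Of the 2 tested, *Gzmm* was not called, with a mean of 3.66 in the KSFM-Ca2+ and 2.42 in the DKSFM cells, and *Cma1* was called lower, with 0.915, 1.09 and 0.59 in the KSFM-Ca2+ replicates and 0 in the DKSFM libraries. *Cma1* reached the filter in the KSFM-Ca2+ cells only, so it had to differ. Its call was lost with 1 added, and the gene was removed by the filter in every library. Of all tested genes 13.2% were called higher and 10.5% lower. The median of these 2 was -1.94, or -0.65 without the gene at 0 in a line.

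Clade A lies in a run of 25 genes within 800 kb of chromosome 12, apart from *Serpina7* on chromosome X. Of its 26 members 11 were tested, 10 called higher and 1 lower, at levels that mostly stayed under 20, where 13.2% and 10.5% of all tested genes were called. In 6 of the 11, *Serpina3c*, *Serpina3f*, *Serpina3j*, *Serpina3k*, *Serpina3n* and *Serpina6*, only one line reached the filter, so these had to differ. With the filter in every library *Serpina3g*, *Serpina3h*, *Serpina3i* and *Serpina3m* remained, all called higher. The most covered clade A gene of the DKSFM cells was *Serpina9* (chr12:103994743-104013755, minus strand), known from germinal centre B cells. It was listed at 0.7, 0.8 and 0.1 in the KSFM-Ca2+ replicates, and its normalized coverage was 49.6, 47.0 and 47.8 in the DKSFM replicates. The lines were far apart (log2 fold change 6.60, SE 0.44, limma adjusted p = 2.44e-06), though KSFM-Ca2+ replicate 3 was at the rounding step, and the log2 fold change was 5.08 with 1 added in place of 0.1. The chosen transcript of *Serpina9* shared 0.574% of its read-length stretches with transcripts of other genes.

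The other called genes that rose were all copies of *Serpina3*, a family expanded in the mouse from a single ancestral antichymotrypsin gene, with 11 listed copies of which 9 were tested. *Serpina3n* (chr12:104406729-104414329, plus strand), a secreted inhibitor of granzyme B, cathepsin G and elastase, was listed at 0, 0 and 0.1 in the KSFM-Ca2+ replicates and had 13.2, 14.2 and 15.6 in the DKSFM replicates (limma adjusted p = 2.25e-07). *Serpina3m* (chr12:104338486-104394257, plus strand) had 1.37, 0.593 and 1.42 against 15.4, 17.4 and 17.8 (log2 fold change 3.87, SE 0.28, limma adjusted p = 3.68e-06). *Serpina3g* (chr12:104236245-104241939, plus strand), an intracellular inhibitor of cysteine cathepsins, had 0.686, 0.989 and 0.590 against 11.4, 9.89 and 13.4 (log2 fold change 3.78, SE 0.19, limma adjusted p = 4.24e-07). These 3 copies lay between 9.89 and 17.8 in all DKSFM libraries and under 1.5 in all KSFM-Ca2+ libraries. *Serpina3h*, a transcribed pseudogene in GENCODE, had 3.12, 2.77 and 2.60 against 12.4, 10.2 and 12.3 (log2 fold change 2.0, SE 0.11, limma adjusted p = 7.11e-07). *Serpina3i* had 2.74, 2.18 and 2.71 against 6.16, 7.09 and 6.57 (log2 fold change 1.35, SE 0.12, limma adjusted p = 1.14e-05). The last pair were the copies with the highest coverage in the KSFM-Ca2+ cells and rose least among the copies above 1 in the DKSFM cells.

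Among the lower copies, *Serpina3k* (chr12:104338486-104346144, plus strand), which encodes a kallikrein-binding serpin, was listed at 0 in the KSFM-Ca2+ libraries and had 1.17, 2.50 and 2.12 in the DKSFM libraries (fitted log2 fold change 4.28, SE 0.32, limma adjusted p = 4.69e-06). *Serpina3c* was likewise at 0 in the KSFM-Ca2+ libraries, with 1.49, 1.30 and 1.80 in the DKSFM libraries (fitted log2 fold change 4.01, SE 0.26, limma adjusted p = 1.77e-06). Both fitted values depend on the added 0.1. *Serpina3f* and *Serpina3j* stayed under 1, and their calls were lost when more was added. *Serpina3f*, at 0.743, 0.60 and 0.742 in the DKSFM replicates, had a log2 fold change of 1.61 as fitted and of 0.84 with 0.5 added, and an adjusted p of 0.0103 among the combined libraries alone. *Serpina3j* was at 0 in the KSFM-Ca2+ libraries, had 0.531, 0.60 and 0.636 in the DKSFM replicates and lost its call with 1 added (log2 fold change 0.67). *Serpina3b*, listed at 0.6, 0.5 and 0.7 in the DKSFM replicates and 0 in the others, missed the filter, and *Serpina3a* was listed at 0. Summed over its 11 copies, the family had 8.0, 6.72 and 7.67 in the KSFM-Ca2+ replicates and 63.1, 64.3 and 71.7 in the DKSFM replicates and was called higher as 1 feature (log2 fold change 3.14, SE 0.08, limma adjusted p = 1.11e-08).

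How far the copies can be told apart was read from a chosen transcript of each copy, set against the annotated transcripts of all other genes. The share of 85-base stretches found also in transcripts of another gene was 9.09% for *Serpina3h*, 7.94% for *Serpina3m*, 7.21% for *Serpina3g*, 6.34% for *Serpina3k*, 4.94% for *Serpina3f*, 4.49% for *Serpina3i* and 0.96% for *Serpina3n*, and none were found for *Serpina3c* and *Serpina3j*. *Serpina3g* and *Serpina3h* shared most with each other, as did *Serpina3k* and *Serpina3m*, whose gene models overlap over 7659 bases. Values of single copies remain less certain than the family sum for reads with sequence errors or in shared stretches, since the rule used for such reads is not given in the sources used here. The reactive-centre loop is known as the part in which the copies differ most, and it decides which protease is caught. The lines below give 75 coding bases of the loop, up to the conserved codons that follow it. They come from GENCODE M21 transcripts on GRCm38, plus strand. Shown are the copies that held these codons, and the same residues near the start of the stretch, at the spacing of *Serpina3n*. Loop lengths of the copies not shown were not compared. The stretches lie within a coding exon at chr12:104413457-104413531 (*Serpina3n*), chr12:104393778-104393852 (*Serpina3m*), chr12:104241081-104241155 (*Serpina3g*) and chr12:104268489-104268563 (*Serpina3i*). Capitals mark bases that differ from *Serpina3n* at the same position.
Serpina3n: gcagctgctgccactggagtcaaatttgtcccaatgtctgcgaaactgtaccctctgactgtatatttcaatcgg
Serpina3m: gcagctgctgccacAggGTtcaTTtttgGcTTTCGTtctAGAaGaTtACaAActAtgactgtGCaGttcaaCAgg
Serpina3g: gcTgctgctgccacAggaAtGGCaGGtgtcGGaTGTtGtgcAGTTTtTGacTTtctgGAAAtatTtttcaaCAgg
Serpina3i: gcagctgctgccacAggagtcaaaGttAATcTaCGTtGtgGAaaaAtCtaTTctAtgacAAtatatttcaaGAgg
From *Serpina3n*, the stretch differs at 27 of 75 bases in *Serpina3m*, at 30 in *Serpina3g* and at 21 in *Serpina3i*, and the first bases of the stretch are nearly the same in all 4.

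Against the rest of clade A, *Serpina6* (chr12:103646630-103657212, minus strand), a carrier of corticosteroids that inhibits no protease, was called lower. It was listed at 0.8, 0.8 and 0.7 in the KSFM-Ca2+ replicates and at 0 in the DKSFM replicates (limma adjusted p = 2.14e-05), and the call was lost with 1 added (log2 fold change -0.80). *Serpina12*, which encodes vaspin, an inhibitor of kallikrein-related proteases, was listed at 0.4 in each DKSFM library and at 0 in each KSFM-Ca2+ library and was under the filter. *Serpina7*, the thyroxine carrier, was listed at 0.1 in each DKSFM library and at 0 in the others. *Serpina1e* was listed at 0.3 at most and *Serpina1d* and *Serpina11* at 0.1 at most. *Serpina1a*, *Serpina1b*, *Serpina1c*, *Serpina1f*, *Serpina5*, *Serpina10*, *Serpina16* and the pseudogene *Serpina4-ps1* were listed at 0, so the genes for antitrypsin, the main clade A serpins of plasma, were at or near the limit of detection.

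**Figure D3:**
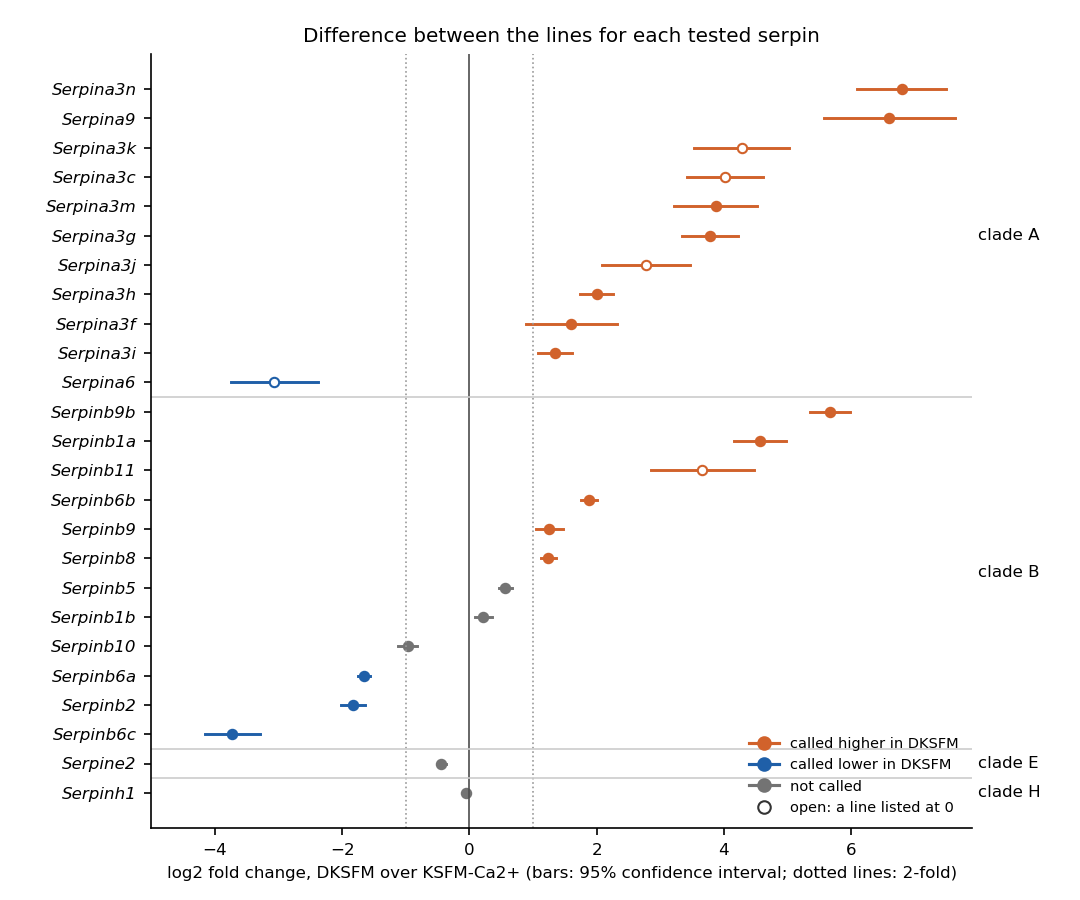
Points give the fitted log2 fold change (DKSFM over KSFM-Ca2+) of each of the 25 tested serpins by clade, with bars for the 95% confidence interval from limma and open points where a line was listed at 0. In clade A 10 of 11 genes lie to the right of the 2-fold line, 5 of which passed the filter only through the DKSFM libraries, while clade B spreads over both sides and *Serpinh1* sits at 0.

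Clade H has a single member, *Serpinh1* (chr7:99345376-99353239, minus strand), which inhibits no protease and acts in the endoplasmic reticulum as the chaperone of collagen. It had 1028, 1008 and 1044 in the KSFM-Ca2+ replicates and 1007, 986 and 986 in the DKSFM replicates. The difference was small and did not pass the threshold (log2 fold change -0.05, 95% confidence interval -0.11 to 0.01, SE 0.03, limma adjusted p = 0.116). In both lines 98.6% of the tested genes had a lower level. Of 18 tested genes that work beside it on collagen folding, 11 were not called, 4 were called higher and 3 lower (13.2% and 10.5% of all tested genes were), with a median log2 fold change of -0.20 beside -0.00 for all tested genes. Among the combined libraries alone 2 were called higher. Of the 4 called higher among all libraries, 1 reached the filter in the DKSFM libraries only, so it had to differ. *P3h4*, part of the lysine hydroxylation complex, had a mean of 22.3 ± 0.278 against 113 ± 3.24 (SD, n = 3; log2 fold change 2.34, SE 0.04, limma adjusted p = 1.11e-09), and the prolyl hydroxylase gene *P3h2* 5.69 ± 0.309 against 12.6 ± 0.484 (log2 fold change 1.14). *Hspa5*, the general chaperone of the same compartment, had 1849 ± 34.3 in the KSFM-Ca2+ cells and 527 ± 17.1 in the DKSFM cells (log2 fold change -1.81, SE 0.03, limma adjusted p = 1.96e-09), and the prolyl hydroxylase gene *P4ha1* 42.6 ± 0.825 and 20.6 ± 0.528 (log2 fold change -1.04).

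Members of the remaining clades were at the limit of detection in both lines. *Serpinf1*, which encodes an antiangiogenic factor without protease inhibition, was listed at 0.3 at most, *Serpini1* (neuroserpin) at 0.2 at most and *Serpinf2* (antiplasmin) at 0.1 at most. *Serpinc1* (antithrombin), *Serpind1* (heparin cofactor) and *Serpini2* were listed at 0. Together with those named above, 17 serpins were above 0 without passing the filter, 10 of them listed at 0.1 at most, and the highest listed value among the 17 was 0.7. Of the 17, *Serpina12*, *Serpina3b*, *Serpinb9c* and *Serpina7* were above 0 in every DKSFM library and at 0 in every KSFM-Ca2+ library. *Serpina1e* went the other way, with a normalized coverage of 0.152, 0.297 and 0.118 in the KSFM-Ca2+ replicates and 0, 0 and 0.106 in the DKSFM replicates. These values lie near the rounding step, and the share among all untested genes is not given here, so they describe the members only.

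Position in the genome was set beside these differences, since genes of a region can shift together. The chromosomes were divided into fixed windows of 20 Mb, so that a gene can lie near the edge of its window. Relative to all tested genes, the other tested genes of the window had a median log2 fold change of -0.24 for the chromosome 1 run (22 genes), -0.05 for the chromosome 12 run (108 genes) and -0.25 for the chromosome 13 run (79 genes). The window of *Serpinh1* had a median of 0.09 and that of *Serpine2* one of -0.29, and both genes lie within 1 Mb of the end of their window, so that these medians describe 1 side of the gene. Measured against its window, no tested serpin changed direction or its side of the 2-fold threshold. Direction changed between neighbours on chromosome 13, where *Serpinb1a*, *Serpinb6b*, *Serpinb9* and *Serpinb9b* were called higher and *Serpinb6c* and *Serpinb6a*, at the other end of the run, lower. Among the tested genes of chromosome 1 the pair *Serpinb2* and *Serpinb10* lay between *Serpinb11* and *Serpinb8*, both called higher. On chromosome 12 *Serpina6* was called lower and the 10 tested genes after it, from *Serpina9* to *Serpina3n*, higher. *Serpina6* and 5 of these 10, like *Serpinb11* and *Serpinb6c*, reached the filter in one line only and had to differ. Of all tested genes 13.2% were called higher and 10.5% lower.

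**Figure D4:**
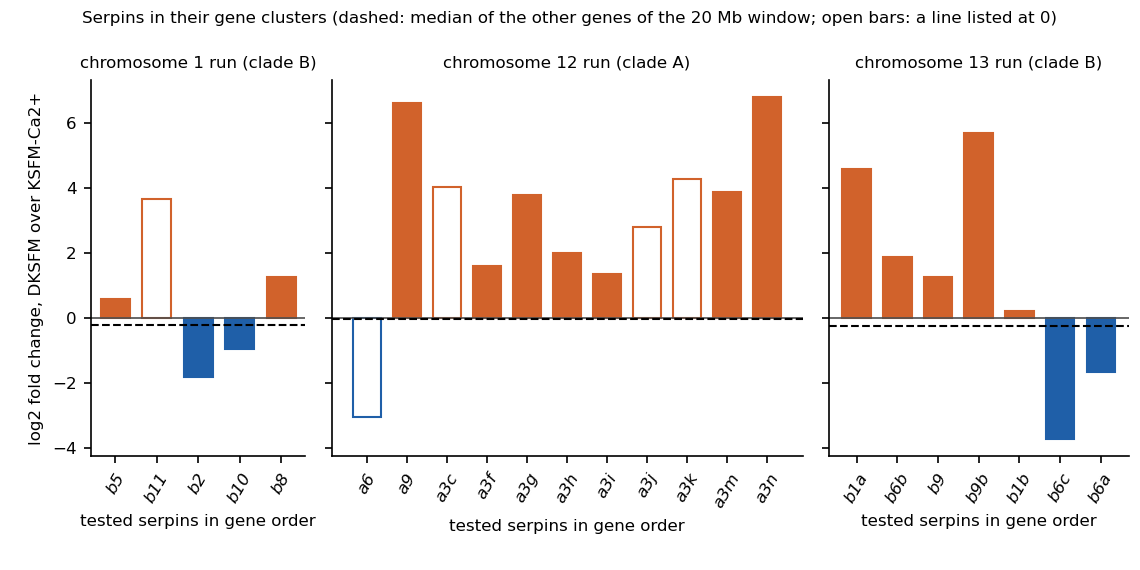
Bars give the fitted log2 fold change (DKSFM over KSFM-Ca2+) of the tested serpins in gene order along the runs of chromosomes 1, 12 and 13, with open bars where a line was listed at 0 and a dashed line at the median of the other tested genes of the 20 Mb window. The window medians of -0.24, -0.05 and -0.25 are small beside most bars, and bars of opposite sign stand side by side on all 3 chromosomes.

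The proteases that epidermal serpins and other inhibitors meet were looked up as lists. Of 20 epidermal serine proteases 19 were tested, 13 called higher and 1 lower, with a median log2 fold change of 4.34, or 3.65 without the 5 genes with a line at 0, where 13.2% of all tested genes were called higher and 10.5% lower. In 9 of the 13 only the DKSFM libraries reached the filter, so these had to differ, and with the filter in every library 4 were called higher. *Klk14*, which encodes a trypsin-like kallikrein of the stratum corneum, was listed at 0 in the KSFM-Ca2+ libraries and had 87.3, 109.4 and 83.5 in the DKSFM replicates (limma adjusted p = 5.40e-10). *Klk6*, of the same family, reached no more than 0.152 in the KSFM-Ca2+ libraries and had 20.7, 43.1 and 19.6 in the DKSFM replicates, of which replicate 2 stood above the others (limma adjusted p = 8.45e-07). *Prss22*, a secreted tryptase-like protease gene, fell from 47.6, 48.7 and 57.8 to 13, 12.9 and 12.2 (log2 fold change -2.01, SE 0.08, limma adjusted p = 9.39e-08). Of 7 tested cysteine cathepsins 1 was called higher and 3 lower (beside 13.2% and 10.5%, median -0.95, or -0.68 without 2 genes with a line at 0), and with the filter in every library none was called higher and 1 lower. The 1 called higher and 2 of the 3 called lower, *Ctsz* among them, reached the filter in one line only and had to differ. *Ctsz*, a lysosomal carboxypeptidase gene, was at 43.7, 39.9 and 41.2 in the KSFM-Ca2+ replicates and listed at 0 in all DKSFM libraries (limma adjusted p = 5.81e-10). Of 6 tested coagulation genes 1 was called higher and 1 lower (beside 13.2% and 10.5%, median -0.00). *Procr*, the endothelial protein C receptor, had 71.6, 74.3 and 78.7 against 7.01, 7.09 and 6.57 (log2 fold change -3.42, SE 0.05, limma adjusted p = 1.29e-09). *Pros1*, the protein C cofactor, was called higher at the edge of the threshold (log2 fold change 1.02), but not without KSFM-Ca2+ replicate 3 (0.97), without DKSFM replicate 2 (0.99) or with 0.5 or 1 added (0.99 and 0.95).

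Of 15 tested inhibitors of other families 8 were not called, 4 were called higher and 3 lower, beside 13.2% and 10.5% of all tested genes. Of the 4 called higher, 1 reached the filter in the DKSFM libraries only, so it had to differ. The median log2 fold change of the 15 was 0.17, or 0.06 without the gene with a line at 0. *Slpi*, an elastase inhibitor of mucosa and wounds, had 1584, 1608 and 1691 in the KSFM-Ca2+ replicates and 503, 511 and 536 in the DKSFM replicates (log2 fold change -1.66, SE 0.04, limma adjusted p = 5.67e-09). *Spink5*, the inhibitor of epidermal kallikreins whose loss causes Netherton syndrome, fell from 82.5, 76.7 and 81.9 to 28.0, 33.2 and 30.1 (log2 fold change -1.40, SE 0.06, limma adjusted p = 2.48e-07). *Spint1*, an inhibitor of matriptase, had 38.4, 36.3 and 40.1 against 66.6, 69.2 and 66.7, under 2-fold (log2 fold change 0.82, SE 0.04, limma adjusted p = 7.25e-07). The cystatin gene *Cst3*, an inhibitor of cysteine cathepsins, rose from 371, 379 and 367 to 1965, 2095 and 1929 (log2 fold change 2.42, SE 0.04, limma adjusted p = 9.94e-10), and *Cst6*, a cystatin of the upper epidermis, from 3.89, 3.26 and 3.42 to 11, 14.3 and 11.3 (log2 fold change 1.76).

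**Figure D5:**
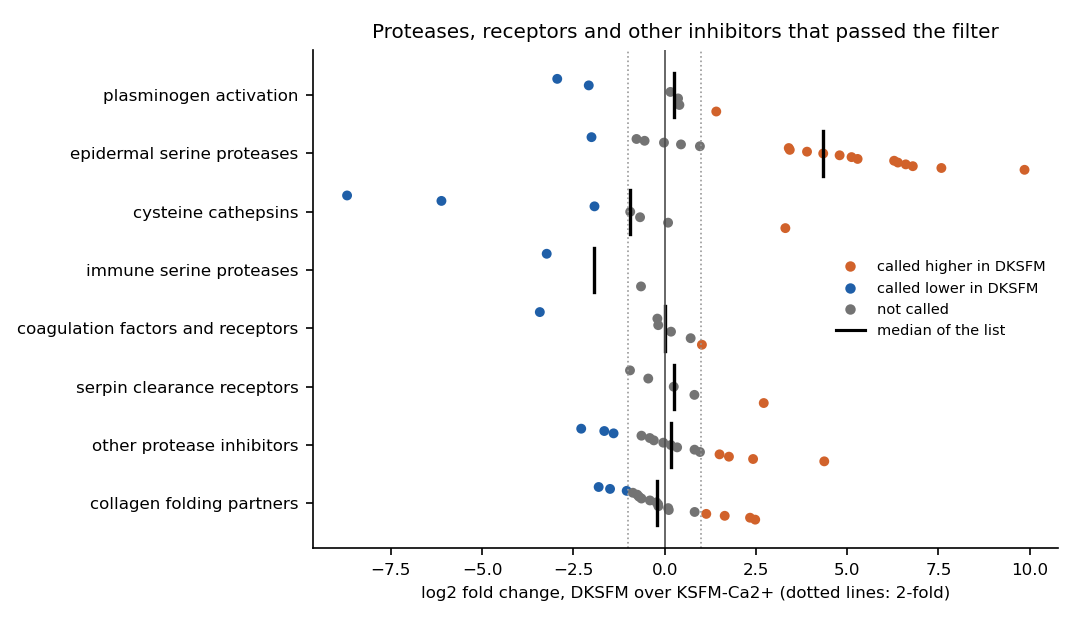
Each point is the fitted log2 fold change (DKSFM over KSFM-Ca2+) of 1 tested gene in 8 lists of proteases, receptors, other inhibitors and collagen folding genes, coloured by its call, with a black bar at the median of the list. The epidermal serine proteases lie furthest to the right, though 9 of their 13 called genes passed the filter only through the DKSFM libraries.

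Markers of keratinocytes and of other cells were read in the same libraries. All 10 keratinocyte markers were tested, led by *Krt14*, with a mean of 11975 in the KSFM-Ca2+ and 29719 in the DKSFM cells, so both lines carried the markers of their label. Of these 10, 4 were called higher, 0 lower and 6 were not called, beside 13.2% and 10.5% of all tested genes. Their median log2 fold change was 0.25, and *Itgb4* was lower, with a mean of 321 in the KSFM-Ca2+ and 192 in the DKSFM cells (log2 fold change -0.74). Of 10 fibroblast markers 7 were listed at 0 throughout, among them *Col1a1*, *Col1a2*, *Col3a1*, *Dcn* and *Lum*. The fibroblast list summed to 8.76, 8.21 and 8.38 in the KSFM-Ca2+ replicates and 2.44, 2.20 and 2.33 in the DKSFM replicates. *Twist2* led the list in the KSFM-Ca2+ cells (mean 7.34) and was at 0.0354 in the DKSFM cells, where *Pdgfra* led it with 2.22, beside 1.11 in the KSFM-Ca2+ cells, so the list did not move as one. Of 10 leukocyte markers 3 were at 0 and 1 was tested, *Cd68*, while *Ptprc* was listed at 0.1 at most. The sum was 11, 11.3 and 12.9 against 14.5, 19.3 and 21.3. Melanocyte markers (2 of 7 at 0, *Tyr* and *Dct*) summed to 4.12, 3.96 and 4.60 against 17.3, 18.8 and 18.3, led by *Mitf*, and endothelial markers (3 of 6 at 0, *Cdh5* among them) to 2.82, 3.16 and 3.30 against 8.28, 8.29 and 7.42, led by *Pecam1*. Hepatocyte markers, read because clade A serpins are made mainly in liver, had 3 of 7 at 0, *Alb* listed at 0.1 at most and sums of 1.68, 3.76 and 2.48 against 1.17, 0.50 and 0.742, led by *Apoa2*. The last 4 sums were mostly those of the leading gene, and in the melanocyte list *Pmel* had a mean of 0.594 in the KSFM-Ca2+ and 0.343 in the DKSFM cells. Whether other cells in the cultures account for these levels, or for any serpin difference, was not tested.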

How the data were processed

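Directional poly(A) RNA of 3 KSFM-Ca2+ and 3 DKSFM libraries was sequenced as single reads, read here as 85 bases. The submitters' notes name bcl2fastq, STAR, DESeq2 and mm10, without versions, and the methods also name Salmon. The authors deposited a signal, the mean coverage per base of each gene, and how coverage was computed from alignments is not given in the sources used here. A count model had been named by the study's methods, but coverage is not a count, so DESeq2 was not used and limma was. Coverage was scaled with trimmed means of M values, taken without weights (trims of 30% and 5%, factors 0.991 to 1.01), 0.1 was added, and log2 values of all 6 libraries were fitted with an intensity trend and no covariate. The steps were tested on simulated data. Members and gene lists were chosen with earlier results of these data known. Named were all tested serpins (1 item that the rule for members takes in is not reported here, and no count, sum or figure of serpins holds it), untested serpins by their highest listed value, and from each list up to 2 called genes a direction with the largest change and a mean of at least 10, besides *Plau*, *Plat*, *Plaur*, *Vtn*, *Lrp1*, *Spink5* and *Spint1*. *Plg*, *Nqo2*, the immune proteases and the markers were named after their values were seen. Positions and transcripts were those of GENCODE M21, joined on the symbol for all 62 serpins. For each serpin, the stretches of a single chosen transcript were compared with all annotated transcripts of other genes. Sequence motifs and the stretches printed were chosen after the values were seen. Alternatives were other scalings (relative log expression, library totals), no filter or a filter in every library, 0.5 or 1 added, no trend, a replicate block, an adjusted p of 0.05, each library left out, combined libraries only, copies summed, and values relative to the window. Clade G, and the study's other assays, were not analysed here. R 4.3.3, limma 3.58.1, Python 3.11.15, Biopython 1.88 and matplotlib 3.10.9 were used.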

Additional observations from a re-analysis of the deposited data

How the results depend on the processing

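The counts of serpins called higher and lower in the DKSFM cells, 16 and 4, were changed by a filter asking for a normalized coverage of 0.5 in every library, which removes genes near 0 in one line and left 9 and 2. Under it 1032 of 11112 tested genes were called higher and 955 lower, and 23 companion genes were called in either direction. Summing close copies to 1 feature a family left 6 serpin features higher and 3 lower. With each library left out in turn the filter asked for 2 libraries, which lets further genes in, and 17 serpins were called higher and 4 to 5 lower, beside 1610 to 1704 and 1295 to 1328 of all genes and 38 to 40 companion genes. The replicate numbers did not pair the libraries (correlations of deviations between same-numbered libraries -0.00508, 0.0239 and -0.0061), and a replicate block gave 16 and 4 again, with 1641 and 1304 of all genes and 39 companion genes. The alternatives with values for single serpins were 17, and the filter in every library removed 9 of the 25 genes. Of the 416 values that remained, 409 kept their direction and their side of the threshold, 5 lost the call, 2 gained it and none reversed. Of 300 values of 19 companion genes, 4 more being removed by that filter, 7 lost the call and none reversed, and 16 of 256 list counts moved by over 1.5 times. The rounding step of 0.1 limits all values of serpins under about 1, and depth in reads was not used.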
